A study of Saccharomyces cerevisiae with 12 samples.

Results

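The siderophore iron uptake genes of Saccharomyces cerevisiae comprise 4 transporter genes (ARN1, ARN2, SIT1 and ENB1) and 3 cell wall mannoprotein genes (FIT1, FIT2 and FIT3). They were taken by name, with earlier results of these data known, and each was read by 1 probe set annotated to that gene alone. These 7 genes were part of 5449 S. cerevisiae genes on the array, of which 5352 were tested. All 7 exceeded background on all 12 arrays, by at least 4.69 times.

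The series compared a parental strain (n = 2 cultures, called biological replicates in the labels), an evolved strain (n = 2, likewise) and homozygotes derived from the evolved strain (n = 8 strains, 1 culture and array each). The study asked how the homozygotes differ in transcription from the parental strain, with improved use of xylose in view. The labels give strain names only, so no genotype, ploidy or introduced gene is stated here for any group. All cultures shared 1 condition: growth in 4% YPX medium at 35 °C and 200 rpm from a starting optical density of 0.1, with harvest at 25 h. Total RNA (100 ng) was labelled with biotin and hybridised to one-colour Affymetrix arrays whose probe sets cover S. cerevisiae and also S. pombe, a fission yeast.

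Siderophores are small molecules that many microbes secrete to bind ferric iron. Baker's yeast makes none of its own, but it imports siderophores made by other organisms, and it holds them in its cell wall on the way. The transporters belong to the major facilitator superfamily. ARN1 carries ferrichromes, ARN2 (also TAF1) triacetylfusarinine C, SIT1 (also ARN3) ferrioxamine B and related hydroxamates, and ENB1 (also ARN4) enterobactin. FIT1, FIT2 and FIT3 encode mannoproteins fixed to the wall by a glycosylphosphatidylinositol (GPI) anchor, and they help retain siderophore iron there. The iron-responsive activator Aft1 induces these genes when iron is scarce, together with the reductive pathway that takes up iron freed from its carriers.

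Signals are given in the deposited intensity units, and differences are log2 ratios of geometric means with their standard error (SE). Calls are those of limma, fitted over all 12 arrays with Benjamini-Hochberg adjustment over 5352 genes, at an adjusted p under 0.05. Signals of different probe sets are not compared with each other, because each probe set has its own brightness.

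Background, set by S. pombe probe sets, lay between 18.7 and 19.6 units. The parental arrays differed from each other by a median absolute log2 difference of 0.22 over tested genes and the evolved arrays by 0.06. The evolved duplicates were so alike that whether they vary as separate cultures do is uncertain. The mean log2 signal of 16 rRNA probe sets was 12.01 and 12.04 on the parental arrays and 11.59 and 11.65 on the evolved arrays. It was 11.90 on homozygote 5, 11.83 on homozygote 6 and 11.57 to 11.68 on the other homozygotes. Its part in the results below was not tested, and values without homozygotes 5 and 6 are given where they change a call. The number of arrays limits the precision, and p-values against the parental strain rest on 2 cultures of it.

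All 7 siderophore genes were lower in the homozygotes than in the parental strain, by 1.62-fold to 3.54-fold. The transporters ARN1, SIT1 and ARN2 and the mannoprotein FIT2 differed most. In 6 of the 7 genes every homozygote lay below both parental arrays; FIT3 was the exception. The evolved strain was lower too, by 1.73-fold to 6.06-fold.

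**Figure D1:**
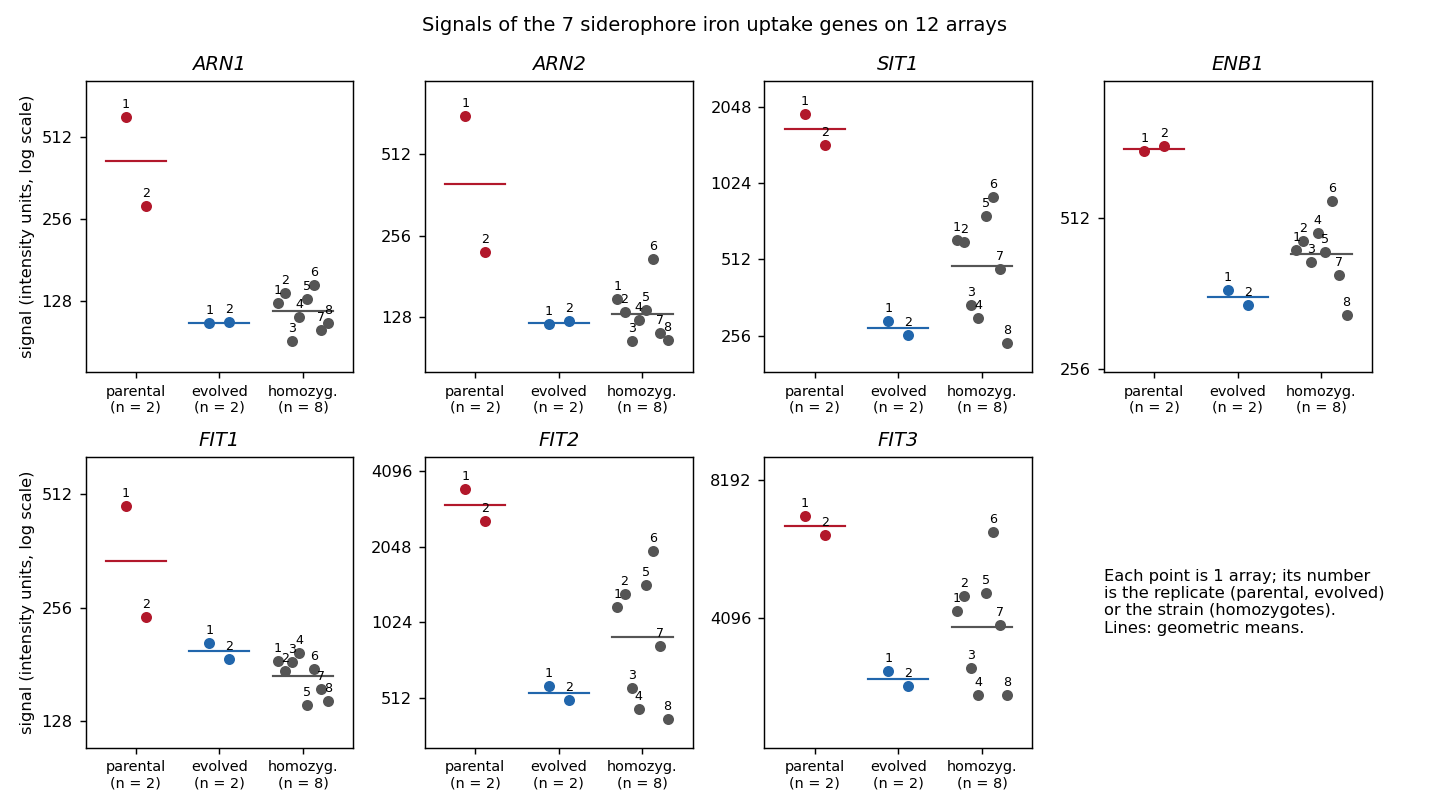
Signal of each siderophore gene (intensity units, log scale) on the 2 parental, 2 evolved and 8 homozygote arrays; each point is 1 array with its replicate or strain number, and lines are geometric means. The parental arrays are the highest in every panel except FIT3, where homozygote 6 (6299) lies between them (6215 and 6819).

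The ferrichrome transporter gene ARN1 had signals of 606 and 287 on the parental arrays and 106 and 108 on the evolved arrays. The homozygotes ran from 91.8 (homozygote 3) through a median of 119 to 147 (homozygote 6). Every homozygote was thus below the lower parental array, and the homozygotes enclosed the evolved values. ARN1 was 3.54-fold lower in homozygotes than in parental cultures (log2 difference -1.83 ± 0.22, adjusted p = 7.5e-05). It ranked 7 among 5352 genes, counted from the largest fall.

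ARN2, the triacetylfusarinine transporter gene, behaved similarly in the derived strains but was the member on which the parental arrays differed most. Its parental signals were 708 and 223, a ratio of 3.18 that 0.262% of tested genes exceeded. The evolved arrays were at 120 and 124, and the homozygotes ran from 104 (homozygote 3) through 129 to 210 (homozygote 6). Homozygote 6 came close to the lower parental array without reaching it. The log2 difference between homozygotes and parental cultures was -1.60 ± 0.32 (adjusted p = 0.0026).

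The hydroxamate siderophore transporter gene SIT1 had parental signals of 1912 and 1447 and evolved signals of 294 and 257. The homozygotes ran from 239 (homozygote 8) through 535 to 897 (homozygote 6). Of the 8 homozygotes, 7 lay above both evolved arrays, homozygote 8 lay below them, and all 8 lay below both parental arrays. The log2 difference from the parental cultures was -1.79 ± 0.40 in homozygotes (adjusted p = 0.0045).

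The enterobactin transporter gene ENB1 had the smallest difference between homozygotes and parental cultures. Its parental arrays were nearly equal at 698 and 712, its evolved arrays were at 368 and 344, and its homozygotes ran from 328 (homozygote 8) through 441 to 553 (homozygote 6). The groups did not overlap between parental arrays and homozygotes, and 7 of 8 homozygotes lay above both evolved arrays. The log2 difference from the parental cultures was -0.70 ± 0.14 (adjusted p = 0.0025).

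Among the mannoprotein genes, FIT2 had parental signals of 3457 and 2587 and evolved signals of 573 and 504. The homozygotes were at 1966 (homozygote 6), 1445 (5), 1326 (2), 1180 (1), 824 (7), 559 (3), 465 (4) and 422 (8). Strain 6 thus came near the lower parental array, while strains 3, 4 and 8 were at or below the evolved level. Over all homozygotes the log2 difference from the parental cultures was -1.75 ± 0.48 (adjusted p = 0.0147), the largest SE among the members.

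FIT3, the neighbour of FIT2 on chromosome XV, had parental signals of 6819 and 6215 and evolved signals of 3137 and 2909. The homozygotes ran from 2776 (homozygote 8) through 4103 to 6299 (homozygote 6). Homozygote 6 alone reached the parental range, and homozygotes 4 and 8 lay below both evolved arrays. The log2 difference from the parental cultures was -0.73 ± 0.24 (adjusted p = 0.0318). This probe set lies toward the upper end of the deposited intensities, which reach 12088, where differences may be compressed.

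FIT1 had parental signals of 477 and 242 and evolved signals of 206 and 187. Its homozygotes ran from 142 (homozygote 5) through 175 to 194 (homozygote 4). It was the member on which 7 of 8 homozygotes lay below both evolved arrays, and none lay above them. The log2 difference from the parental cultures was -1.01 ± 0.19 (adjusted p = 0.0017).

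Of all tested genes, 18% were called lower in homozygotes than in parental cultures and 31.2% in either direction, against 7 of 7 siderophore genes called lower. Every homozygote was below both parental arrays in 18.7% of tested genes, against 6 of 7 members. The median log2 difference was -1.60 over the members and -0.04 over all tested genes. Because the members were chosen with earlier results of these data known, these contrasts with all tested genes are not independent support. Leaving out the first parental array left 4 of 7 calls in limma. ARN2 then stood at -0.77 (adjusted p = 0.0568), FIT2 at -1.54 (adjusted p = 0.102) and FIT3 at -0.67 (adjusted p = 0.149), while FIT1 kept its call at -0.52 (adjusted p = 0.0302). Leaving out the second moved ARN2 to -2.44 and cost FIT3 its call (-0.80, adjusted p = 0.0784). With array weights estimated per group, ARN1, ARN2 and FIT1 were called and the other 4 were not.

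The evolved strain was lower than the parental strain in all 7 members, and 6 of these differences passed the test. SIT1 and FIT2 were again prominent, at 6.06-fold and 5.56-fold lower. SIT1 had a log2 difference of -2.60 ± 0.50 (limma adjusted p = 0.0058) and ranked 3 among 5352 genes from the largest fall. FIT2, with -2.48 ± 0.61 (adjusted p = 0.0233), ranked 4. The parental and evolved arrays did not overlap in any member.

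ARN1 had a log2 difference of -1.96 ± 0.28 (limma adjusted p = 0.00069) and ARN2 of -1.70 ± 0.41 (0.0208). ARN2 was at -0.87 (adjusted p = 0.104) with the first parental array left out and at -2.54 with the second left out. FIT3 was at -1.11 ± 0.30 (0.0364) and ENB1, the enterobactin transporter gene, at -0.99 ± 0.18 (0.0035). FIT1 did not pass the threshold, at -0.79 ± 0.24 (adjusted p = 0.0574, unadjusted p = 0.0055). Its parental arrays differed 1.97-fold. The FIT1 difference was -1.28 (adjusted p = 0.00056) with the second of them left out and -0.30 (adjusted p = 0.323) with the first left out.

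Of all tested genes, 5.21% were called lower in the evolved strain, 3.2% higher and 8.41% in either direction. Both evolved arrays lay below both parental arrays in 28% of tested genes, against 7 of 7 members. The median log2 difference was -1.70 over the members and -0.01 over all tested genes. Here too the choice of members with earlier results known limits the contrast. When the evolved arrays were averaged and counted as 1, only ARN1 and ENB1 were called. Array weights per group ended the calls of FIT2 (adjusted p = 0.121) and FIT3 (adjusted p = 0.165), and a fit of these groups alone ended those of ARN1 (adjusted p = 0.103) and ARN2 (adjusted p = 0.238). The count was 3 without parental array 1, 3 without evolved array 1 and 2 without evolved array 2.

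**Figure D2:**
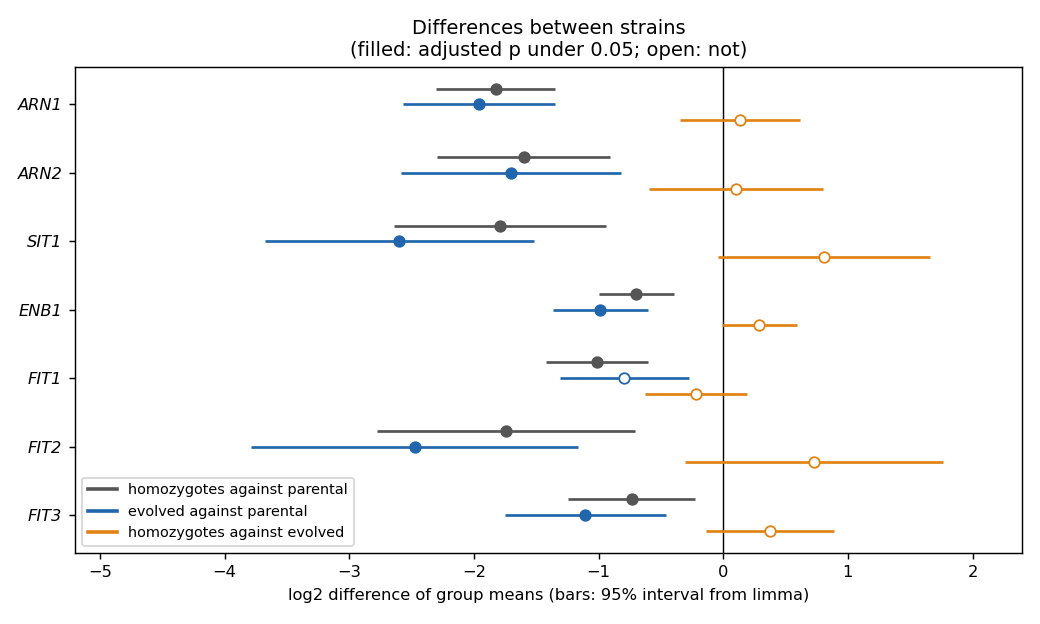
Log2 difference of group means for each siderophore gene in the 3 comparisons, with 95% intervals from limma; filled points have an adjusted p under 0.05 and open points do not. All points against the parental strain lie left of 0, from -0.70 to -2.60, and all 7 intervals of homozygotes against the evolved strain include 0.

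Set against the evolved strain from which they came, the homozygotes differed by more than the spread in none of the 7 genes. Over all 5352 genes limma called 0% in this comparison. At an unadjusted p under 0.05 there were 929 genes and 0 members. With array weights estimated per group, 2 members were called higher in the homozygotes, SIT1 (adjusted p = 0.0264) and ENB1 (0.0268), together with 1549 of all genes. Every homozygote was above both evolved arrays in 9.25% of tested genes and below both in 12.8%, against none of the 7 members either way.

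For SIT1 the log2 difference of homozygotes from evolved cultures was 0.81, with a 95% interval from -0.04 to 1.66. For FIT2 it was 0.73 (-0.30 to 1.77), for FIT3 0.37 (-0.14 to 0.88) and for ENB1 0.29 (-0.01 to 0.59). ARN1 was at 0.13 (-0.34 to 0.61), ARN2 at 0.10 (-0.59 to 0.80) and FIT1 at -0.22 (-0.63 to 0.19). The order of group means was therefore parental, homozygote, evolved for 6 members and parental, evolved, homozygote for FIT1, with the last 2 groups not separated beyond their spread.

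The homozygotes varied among themselves most in FIT2, SIT1 and FIT3. The highest homozygote was 4.66 times the lowest for FIT2, 3.75 times for SIT1 and 2.27 times for FIT3. It was 2.02 times for ARN2, 1.68 times for ENB1, 1.60 times for ARN1 and 1.37 times for FIT1. The SD of the log2 signal over the 8 strains was 0.83 for FIT2, 0.67 for SIT1 and 0.41 for FIT3, against a median of 0.12 over all tested genes. FIT2 ranked 4 and SIT1 ranked 13 among 5352 genes by this SD.

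Whether strains differed more than duplicate cultures was tested by an F test of the homozygote variance against the parental and evolved duplicates. It called 0% of tested genes after adjustment and 2.24% before it (120 genes at an unadjusted p under 0.05). The members among these were FIT3 (unadjusted p = 0.0018), FIT2 (0.0027) and SIT1 (0.0062). The share of 2.24% is below the 5% that this threshold gives by chance, so these p-values do not by themselves show differences between strains. For ARN1, ARN2 and FIT1, whose parental arrays lay far apart, the homozygotes' SD was smaller than that of the duplicates. In simulated data the F test recovered 53.5% of genes given a homozygote SD 5 times larger. The simulation gave all groups the same spread in each gene. In the data the parental arrays differed more than the evolved arrays, so this share need not hold here. The lack of calls therefore does not show that strains were alike. The unadjusted p-values rest in part on the evolved duplicates, whose variation as separate cultures is uncertain.

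**Figure D3:**
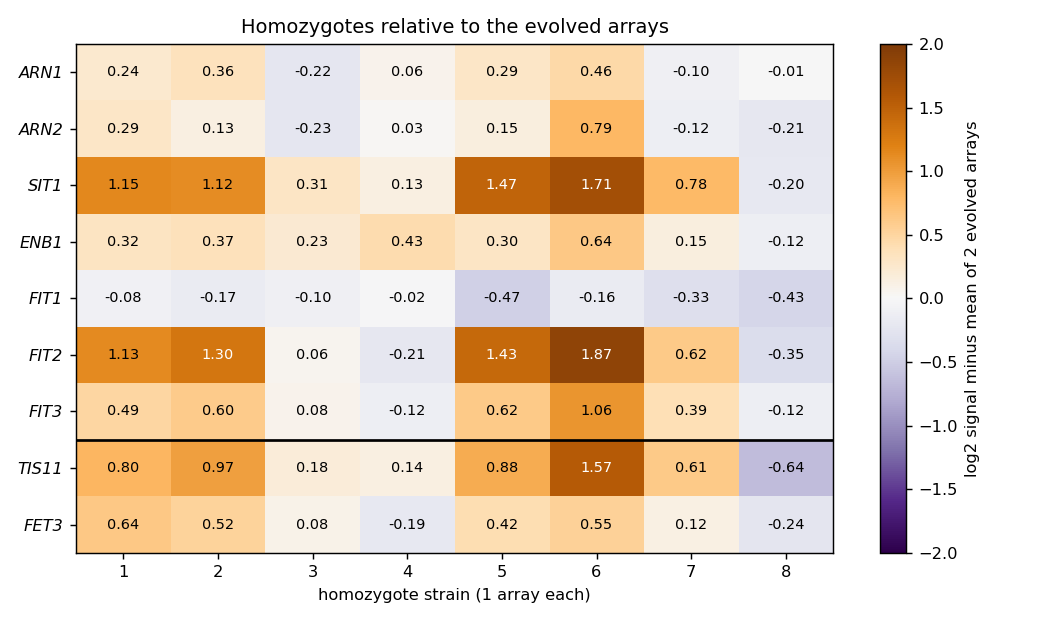
Log2 signal of each homozygote (columns, 1 array each) minus the mean of the 2 evolved arrays, for the 7 siderophore genes and, below the line, TIS11 and FET3. Homozygote 6 is the highest for SIT1 (1.71), FIT2 (1.87) and FIT3 (1.06), and homozygote 8 is the lowest for these genes.

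By strain, homozygote 6 stood highest, with a median over members of 0.79 log2 units above the evolved mean and 0.89 below the parental mean. Homozygotes 1, 2, 5 and 6 each exceeded both evolved arrays in 6 of 7 members, the remaining one being FIT1. Homozygote 8 was below both evolved arrays in 6 of 7 members and above them in 0. Homozygotes 3, 4 and 7 lay between, with 3, 4 and 4 members above both evolved arrays. The matching shares over all tested genes were not computed for single strains. The evolved arrays differed by a median of only 0.06 log2 units, so a single array can easily lie outside both.

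The strains took nearly the same order in SIT1, FIT2 and FIT3. For FIT2 and FIT3 it was 6, 5, 2, 1, 7, 3, 4, 8 from high to low, and SIT1 differed only in the places of homozygotes 1 and 2. Over the 8 homozygotes FIT2 and FIT3 had a Pearson r of 0.98 (exact permutation p = 2.5e-05, the smallest 8 strains can give; adjusted p = 0.00052) and a Spearman rho of 1 (exact permutation p = 5.0e-05). SIT1 and FIT2 had an r of 0.99 (exact permutation p = 5.0e-05, adjusted p = 0.00052; rho 0.98, exact permutation p = 0.0004). SIT1 and FIT3 had an r of 0.97 (exact permutation p = 7.4e-05, adjusted p = 0.00052; rho 0.98, exact permutation p = 0.0004). Without homozygotes 4 and 8, the strains farthest from the median, r was 0.96, 0.99 and 0.95.

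Of 21 pairs of members, 9 had an adjusted p under 0.05 by Pearson's r and 5 by Spearman's rho, and 18 had a positive r. The share among pairs of all tested genes was not computed, so these counts do not show co-variation particular to the members. Some named genes outside the group, such as TIS11, FTH1 and FLO9, also had homozygote 6 highest and homozygote 8 lowest, while others did not. HXT5, RTC3, VMR1 and YNL195C had the same highest and lowest strain, but they were named because their profiles lay close to the members' mean. ARN1 and ARN2 had an r of 0.86 (exact permutation p = 0.0037, adjusted p = 0.0194; rho 0.88, exact permutation p = 0.0072), and 0.82 without homozygotes 3 and 6 (exact permutation p = 0.0611). FIT1 had lower correlations with most members: its r with FIT2 was -0.05 (exact permutation p = 0.899) and its rho -0.19 (exact permutation p = 0.665). With ENB1 the r of FIT1 was 0.57 (exact permutation p = 0.139) and rho 0.55 (exact permutation p = 0.171), and over the 6 strains without homozygotes 5 and 6 that r was 0.90 (exact permutation p = 0.0139, adjusted p = 0.0729). Without homozygotes 5 and 6 no pair passed the adjustment over 6 strains. There r was still 0.99 for FIT2 with FIT3, 0.98 for SIT1 with FIT2 and 0.97 for SIT1 with FIT3 (exact permutation p = 0.0042, 0.0056 and 0.0097).

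**Figure D4:**
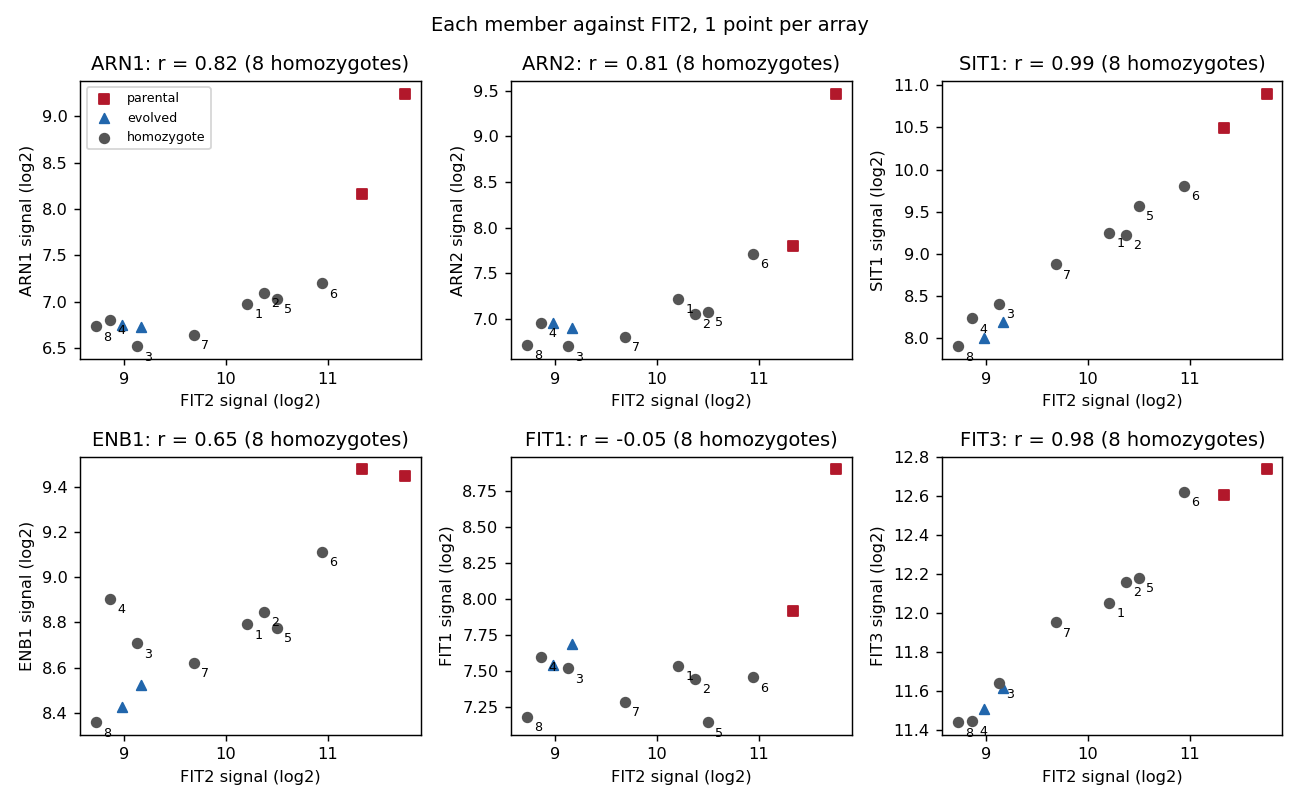
Log2 signal of each other siderophore gene against FIT2, 1 point per array (squares parental, triangles evolved, circles homozygotes with their strain number); r is over the 8 homozygotes alone. SIT1 and FIT3 rise along FIT2 with r of 0.99 and 0.98 across the strains, and FIT1 does not, with r of -0.05.

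The remaining genes of iron handling changed in part, and their counts stand beside 18% of all tested genes called lower and 13.2% called higher. Of 12 genes of reductive uptake, 6 were lower in homozygotes than in parental cultures and none was higher (median log2 difference -0.55). They include FET3, the multicopper ferroxidase, at -1.15 ± 0.21 (limma adjusted p = 0.0015), and FTR1, the permease that works with it, at -1.05 ± 0.11 (adjusted p = 1.5e-05). FRE2, a ferric and siderophore reductase, was at -1.53 ± 0.20 (adjusted p = 0.00014), with a lowest signal of 1.56 times background. FRE5, which follows FIT3 on chromosome XV, was under background on every evolved and homozygote array and at least 2.01-fold lower in homozygotes. FRE5 entered the tests through the parental arrays alone, so it had to differ, and 5 of the other 11 genes were lower.

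Of 11 genes in a list named for vacuolar iron and copper stores, 5 were lower and none higher (median -0.18). The list is broader than its name, so its median does not describe such stores alone. It also holds MRS3, MRS4, FRE7 and COT1, which were not called, and ZRC1, which was lower at -0.52 ± 0.15 (limma adjusted p = 0.0177). Those with the largest changes were FTH1, a vacuolar iron permease, at -0.87 ± 0.13, and SMF3, a vacuolar divalent metal transporter, at -0.81 ± 0.19. FET5, the oxidase partner of FTH1, was at -0.67 ± 0.11, and CTR2, a vacuolar copper transporter, at -0.53 ± 0.12. Their adjusted p-values in limma were 0.00038, 0.0065, 0.00068 and 0.0067, in that order. With the second parental array left out, SMF3 (adjusted p = 0.0776) and CTR2 (adjusted p = 0.0547) missed the threshold.

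In the list built around TIS11 and genes of iron economy, 2 of 12 were lower and 2 higher (median 0.09), close to the shares of all tested genes. The list pools TIS11 with genes for iron-using proteins, so its median and counts can hide opposite changes. TIS11 (also CTH2) encodes an RNA-binding protein that promotes decay of mRNAs for iron-using proteins. Its signals were 2051 and 1302 on parental arrays, 479 and 434 on evolved arrays and 291 to 1351 in homozygotes (log2 difference -1.28 ± 0.40, limma adjusted p = 0.0273). Leaving out the first parental array ended the TIS11 call (-0.95, adjusted p = 0.209). VHT1, the biotin transporter gene, was at -0.45 ± 0.09 (adjusted p = 0.0033). LEU1, an iron-sulfur enzyme of leucine synthesis, was higher at 1.27 ± 0.17 (adjusted p = 0.00015). CCP1, mitochondrial cytochrome c peroxidase, showed 0.37 ± 0.13 (adjusted p = 0.0444), which became -0.019 when the first parental array was left out and 0.39 (adjusted p = 0.0621) without homozygotes 5 and 6.

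Transcripts of most regulators did not pass the test. Of 12 regulator genes 1 was higher and none lower (median 0.03), the one being YAP5, an activator of genes induced by high iron, at 0.37 ± 0.12 (limma adjusted p = 0.034). The YAP5 call was lost with either parental array left out (adjusted p = 0.077 for the first and 0.156 for the second). AFT1 had signals of 251 and 187 on parental arrays, 165 and 159 on evolved arrays and 148 to 223 in homozygotes, and did not pass the test (-0.34 ± 0.14, adjusted p = 0.0746). Single arrays decided the AFT1 call. It was at -0.55 (adjusted p = 0.0237) with the second parental array left out, at -0.39 (adjusted p = 0.0175) without homozygote 6 and at -0.41 (adjusted p = 0.0201) without homozygotes 5 and 6, but at -0.13 (adjusted p = 0.621) with the first parental array left out. Its paralogue AFT2 was at 0.02 ± 0.13 (adjusted p = 0.925).

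Neither of the wider families of the members showed the same picture. Their counts stand beside 18% of all tested genes called lower and 13.2% called higher. Of 18 tested genes for other GPI-anchored wall proteins, 6 were higher and 1 lower (median 0.11). TIR1, a wall mannoprotein of cold and anaerobic growth, was at 0.81 ± 0.25 and the flocculin gene FLO11 at 0.42 ± 0.05. The TIR1 difference was 0.10 (limma adjusted p = 0.691) with the first parental array left out and 1.53 with the second left out, and it missed the threshold without homozygotes 5 and 6 (0.80, adjusted p = 0.0504). FLO9, at -0.85 ± 0.27, was read by a probe set shared with related genes and lost its call with either parental array left out (adjusted p = 0.0568 and 0.18). Of 14 tested genes for other major facilitator transporters of drugs and polyamines, 1 was higher and 2 lower (median -0.19). For a list of this size these counts are close to the shares of all tested genes. YHK8 was at -0.78 ± 0.12, QDR3 at -0.41 ± 0.11 and FLR1 at 0.39 ± 0.09. The QDR3 call was lost with the first parental array left out (adjusted p = 0.0542) and with array weights (adjusted p = 0.211).

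**Figure D5:**
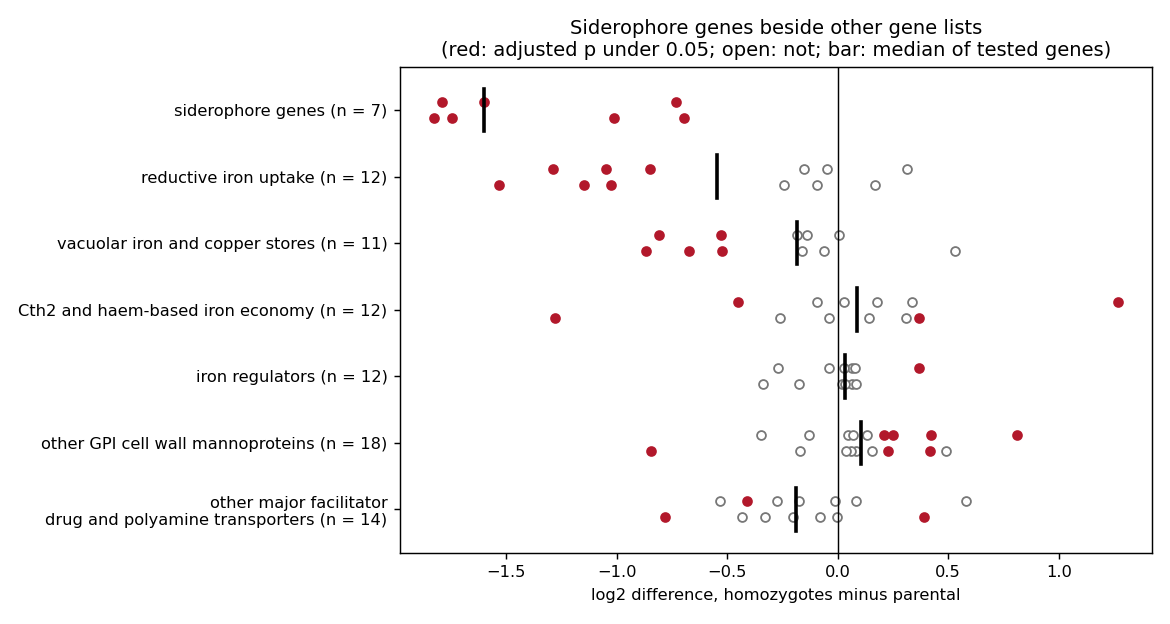
Log2 difference of homozygotes minus parental cultures for the tested genes of the siderophore group and of 6 other gene lists; red points have an adjusted p under 0.05, open points do not, and bars are medians. The siderophore genes lie between -1.83 and -0.70, the reductive uptake genes have a median of -0.55, and the medians of the other lists lie between -0.19 and 0.11.

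The members also share a position that their choice did not use. All 7 lie within the last 14 protein-coding genes of a chromosome end in the R64 gene order, on chromosomes IV (FIT1), V (SIT1), VIII (ARN1 and ARN2) and XV (ENB1, FIT2 and FIT3). The limit of 14 is the place of the farthest member, FIT2, whose neighbour is FIT3. The share of all tested genes that near an end was not computed. Of 478 other tested genes within 20 genes of an end, 96 were lower and 112 higher in homozygotes than in parental cultures, with a median log2 difference of 0.01. These are 20.1% lower and 23.4% higher, against 18% and 13.2% of all tested genes. The medians of chromosomes IV, V, VIII and XV lay between -0.07 and -0.03.

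Genes next to the members went in both directions. FIT2, FIT3 and FRE5, which follow each other on chromosome XV, were all lower, as given above. STL1, the glycerol symporter gene beside FIT1, was at -3.22 ± 0.16 (limma adjusted p = 6.1e-08), while HSP31 on its other side was higher at 0.74 ± 0.10 (adjusted p = 0.0002). COS8, next to ARN2, was higher at 0.46 ± 0.10 (adjusted p = 0.0046), but at 0.26 (adjusted p = 0.0897) with the second parental array left out. AVT2, next to SIT1, was lower at -0.41 ± 0.11 (adjusted p = 0.0133; 0.0532 and 0.0648 with the first or second parental array left out), and HPA3 on its other side was at -0.04 ± 0.13 (adjusted p = 0.825). EFM1, next to ARN1, was at 0.16 ± 0.11 (adjusted p = 0.273). Both genes beside ENB1 were not tested, nor was 1 neighbour each of ARN1, ARN2 and FIT2.

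Profiles were then compared with the mean centred log2 profile of the 7 members, by the root mean square (RMS) difference. Over the 12 arrays the closest genes were FET3 (RMS 0.16 log2 units), the hexose transporter gene HXT5 (0.17), RTC3 (0.22), the Fet3 copper-loading ATPase gene CCC2 (0.23) and the vacuolar ABC transporter gene VMR1 (0.23), against a median of 0.63 over all tested genes. Over the 8 homozygotes alone they were YNL195C (0.12), the methyltransferase gene RKM5 (0.13), VMR1 (0.13), SMF3 (0.14) and OPI10 (0.14), against a median of 0.36. The members themselves lay at 0.10 (FIT3) to 0.45 (FIT2) from their mean over the homozygotes, and FIT1 (0.36) and FIT2 were no closer to it than the median gene. This distance also counts the size of a gene's variation. FIT2 had a Pearson r of 0.98 with FIT3, the closest member, but an SD of 0.83 against 0.41. Its distance thus does not mean that FIT2 took a different order of strains. Over the 12 arrays the members lay at 0.25 (ARN1) to 0.44 (FIT2). The closest genes were picked from all tested non-members for the smallest distance, so that they lay closer than the members follows from the choice. The distances therefore do not show whether the mean profile is particular to the members. These distances describe likeness over arrays and share their scaling. Of the genes close over the homozygotes, YNL195C (0.36 ± 0.20, limma adjusted p = 0.179) and RKM5 (-0.34 ± 0.20, adjusted p = 0.198) did not differ from the parental cultures beyond the test.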

How the data were processed

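The deposited values are intensities on a linear scale, with 1 value for each probe set on each array. The submitters' processing notes name MAS5, without version or role. The scaling between arrays and the genome build were not given in the sources used here. Coordinates are therefore left out. Values ran from 4.05 to 12088.

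Genes were assigned to probe sets by gene identifier, from the platform annotation and the R64 gene table. A gene-specific probe set was preferred to a shared one, then the brightest. Background was the 90th percentile of 1746 S. pombe probe sets on each array. Genes over background on 2 or more arrays entered the tests. Log2 intensities, with no further normalization or pseudocount, went into a limma (version 3.58.1, R 4.3.3) model with a mean for each of the 3 groups over 12 arrays and variance moderation that depends on signal. All groups share 1 spread per gene, which rests mostly on the 8 homozygotes. Tests were two-sided except the F test of spread (upper tail). Pair correlations used exact permutation over strains, with adjustment over 21 pairs. The code was tested on simulated data.

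The members and lists were chosen with earlier results of these data known. Named genes are all members, AFT1, AFT2, FET3, FTR1, up to 4 called genes of a list with the largest change, the 5 closest profiles over 12 and over 8 arrays, and the members' neighbours. Alternatives covered scaling, background, pseudocount, variance model, array weights, replicates and pairing. The replicate numbers of parental and evolved arrays were not used as pairs: the correlation of their deviations over genes was -0.05.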

Additional observations from a re-analysis of the deposited data

Results flagged for a closer look

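A sample far from the others was looked for among the 8 homozygotes for 46 named genes, and 2 of the 46 (4.35%) had one. Chance alone flags about 5% of genes examined, so this number is what chance gives. AFT1 had a signal of 223 in homozygote 6 against 178 in the next strain, a gap of 0.553 of the group's range, above Dixon's critical value. The same strain was the highest for all members except FIT1. FRE5 had a signal of 12.3 in homozygote 7 against 15.0 in the next, a gap of 0.562 of the range, and both lie under background. No siderophore gene had such a strain.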

How the results depend on the processing

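Against the parental strain, all 7 siderophore genes were called lower in homozygotes under every alternative of 26 except array weights per group (3, with 325 of all genes and 7 rather than 16 genes of the iron lists called) and leaving out parental array 1 or 2 (4 and 6; 4 to 7 without single arrays). For all genes it was 1394 to 1677 and for the iron lists 12 to 20 without single arrays. For evolved against parental cultures the count of 6 became 2 with the evolved arrays averaged as 1, 4 with array weights, 4 in a fit of those groups alone and 2 to 6 without single arrays. All genes called there numbered 450, and 184 with array weights, 46 in a fit of those groups alone, 133 with the evolved arrays averaged and 118 to 863 without single arrays (118 and 153 without evolved array 1 or 2, 863 without parental array 2). For homozygotes against evolved cultures the count of 0 became 2 with array weights (1549 of all genes), and 1 of all genes was called in a fit of those groups alone and 0 to 29 without single arrays (29 without homozygote 8, 1 without either parental array). Using the replicate number of parental and evolved arrays as a replicate block gave 7, 7 and 0 calls in the 3 comparisons. FIT1 was then called in the evolved strain (-0.79, adjusted p = 0.0222), and the block changed no other call of a member. Without homozygotes 5 and 6, an alternative chosen after seeing the data for the pairs, 0 rather than 9 pairs passed the adjustment, over 6 rather than 8 strains. Signs of named genes turned as follows: HPA3 was at 0.0079 after quantile normalization, CCP1 ran from -0.019 without parental array 1 to 0.76 without parental array 2, AFT2 stood at 0.10 without parental array 1, -0.066 without parental array 2, -0.025 without homozygote 6 and -0.035 without homozygotes 5 and 6, and ARN2 against the evolved strain at -0.019 without those strains. The cause of these differences was not tested.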

Other observations

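Markers of haploid and mating cells gave no common direction between homozygotes and parental cultures. Of 16 tested genes, 2 were higher and 2 lower (median log2 difference -0.13), near the 13.2% higher and 18% lower of all tested genes. The list pools genes of a cells, of alpha cells and of the mating pathway, so its median does not describe 1 cell type. The other 12 were not called, among them the a-factor genes MFA1 (0.14) and MFA2 (-0.30) and the alpha-factor gene MF(ALPHA)2 (-0.24). STE3, the receptor gene of alpha cells, was at 0.68 ± 0.18 (limma adjusted p = 0.0122), and STE18, a G protein subunit gene of the mating pathway, at 0.41 ± 0.11 (0.015). STE2, the receptor gene of a cells, was at -0.41 ± 0.13 (0.0294), and AXL1, a protease gene of a-factor maturation, at -0.51 ± 0.14 (0.0129). Signals of STE3, STE18 and AXL1 were near background, at their lowest 1.37, 1.70 and 1.89 times it. After quantile normalization STE2 (-0.30, limma adjusted p = 0.0888) and AXL1 (-0.37, adjusted p = 0.0844) missed the threshold. With the first parental array left out, STE3 was at 0.32 (adjusted p = 0.246), STE2 at -0.22 (adjusted p = 0.331) and STE18 at 0.43 (adjusted p = 0.0528). With the second left out, AXL1 was at -0.26 (adjusted p = 0.219), STE18 at 0.39 (adjusted p = 0.0694) and STE3 at 1.03.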
